A study of Mus musculus with 14 samples.

Results

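Hematopoietic stem cells (HSC) of young adult wild-type (WT) mice were compared with whole bone marrow (WBM) of mice of the same age. The members are the 4 arrays whose titles give HSC or WBM at 2 mo, 2 arrays (A and B) in each group, of 14 arrays in all, and every one of the 22626 probe sets that is not an Affymetrix control. Of these probe sets, 20380 carry a single gene symbol, which gives 12393 genes, each read on its brightest probe set over the 4 arrays. Both groups came from male C57Bl/6 mice (CD45.1, as the methods give for the aged WT colony), with none of the mutant p53 alleles of the series. HSC were sorted as side population cells, which pump out the dye Hoechst, that carried c-Kit as well as Sca-1 on their surface, and lacked the antigens of mature myeloid cells (Gr-1, Mac-1), T cells (CD8, CD4), B cells (B220) and red cells (Ter119). WBM is unfractionated marrow, so it holds maturing cells of all lineages and a small share of stem cells. An HSC array held RNA pooled from several mice, so its replicate is a pool and not a mouse, and for WBM pooling is not given in the sources used here. Nothing says which arrays came from separate days or cohorts. The p-values and standard errors (SE) rest on the spread between arrays of a group, which may be technical. That spread was pooled over the 10 WT arrays, HSC of older ages included. An SE is thus not the scatter of the 4 arrays at 2 mo alone. The labels give both groups the same flow sorting and the same amplification by repeated in vitro transcription. Dye efflux, magnetic enrichment for Sca-1 and antibody gating are described for HSC, and cell type and these steps cannot be told apart in this design. A label field gives the age of 2 mo for every sample of the series, and the ages used here are those of the titles.

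HSC sit at the top of the blood hierarchy, divide rarely, and give rise through progenitors to red cells, platelets, granulocytes, macrophages and lymphocytes. Their quiescence is known to depend on cell cycle inhibitors, on signals from the niche such as TGF-beta and angiopoietin, and on transcription factors that include the Hox genes of the A and B clusters, Meis1 and Gata2. They are also known for low mitochondrial respiration and reliance on glycolysis, and for efflux pumps of the ABC family, on which the side population phenotype rests.

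Values are log2 GC-RMA levels, so a difference of 1 is a doubling. A gene was called higher or lower when limma gave a Benjamini-Hochberg adjusted p under 0.05 over all 22626 probe sets and the difference was at least 2-fold, from group means over the 10 WT arrays. The number of arrays limits the precision. On 1 array 42.93% to 43.62% of probe sets read 5 or above, and below that value the sizes of differences are loose. With values below 5 set to 5, Cybb, Epor and Hoxa10, among the genes named here, differed by less than 2-fold (-0.98, -0.45 and 0.82), and Fosb (1.21), Pdk4 (1.01), Relb (2.22), Ppargc1a (2.25) and Atf3 (2.43) kept 2-fold but not the adjusted p (0.0615 to 0.514). In the same refit Srebf1 (4.17), Tkt (-1.85) and Gfi1b (-1.41) lost their call through the adjusted p alone (0.105, 0.051 and 0.0616), and the differences of Tkt and Gfi1b were the same as without it. The control probe sets for ribosomal RNA differed between the groups: the 5′ control for 18S rRNA read 10.91 and 10.88 on the HSC arrays and 5.32 and 5.14 on the WBM arrays, the middle one 10.60 and 9.82 against 6.33 and 6.17, and the 3′ one 8.87 and 7.70 against 6.39 and 6.28. On the 21 mo HSC arrays the 5′ control read 4.84 and 5.44. The 3′ minus 5′ difference of the actin controls, a measure of RNA length, was 4.59 and 4.65 in HSC and 3.33 and 2.87 in WBM, and that of the Gapdh controls ran the other way, 3.91 and 3.68 against 4.59 and 4.48. The part of these differences in the results was not tested. Levels in HSC at 21 mo, where the 5′ control lay near that of WBM, are given beside some of the results. Comparisons of either HSC age with WBM use the same 2 WBM arrays.

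Of the probe sets, 11% were called higher and 9.69% lower in HSC, 20.7% in all. Of the genes, 1628 (13.1%) were higher and 1341 (10.8%) lower, together 24%, and the median difference over all genes was -0.015. Among the 1628 higher genes, 533 read below 5 in WBM, and among the 1341 lower genes 517 read below 5 in HSC. In these bulk samples fewer cells of a type and less RNA per cell cannot be told apart.

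Marker genes were read as a check of the labels. Of 27 measured genes known from stem cells, 16 were higher and 1, Gfi1b, lower in HSC, with a median difference of 2.33. Gfi1b (adjusted p = 0.0349) was not called without HSC A (0.0939), WBM A (0.122) or WBM B (0.149). None of the 14 neutrophil, 13 erythroid or 17 B lineage markers was higher, and 14, 12 and 15 of them were lower. The mean level of the neutrophil markers was 5.45 and 4.98 on the HSC arrays and 12.52 and 12.62 on the WBM arrays, and that of the erythroid markers 4.03 and 3.95 against 11.28 and 11.17. T and NK markers were low in both groups, with means of 3.08 and 2.92 in HSC and 4.02 and 3.88 in WBM, and 3 of 16 were lower in HSC. Kit, on whose product the cells were sorted, read 8.24 and 8.34 in HSC and 7.74 and 7.71 in WBM and was not called (adjusted p = 0.598).

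**Figure D1:**
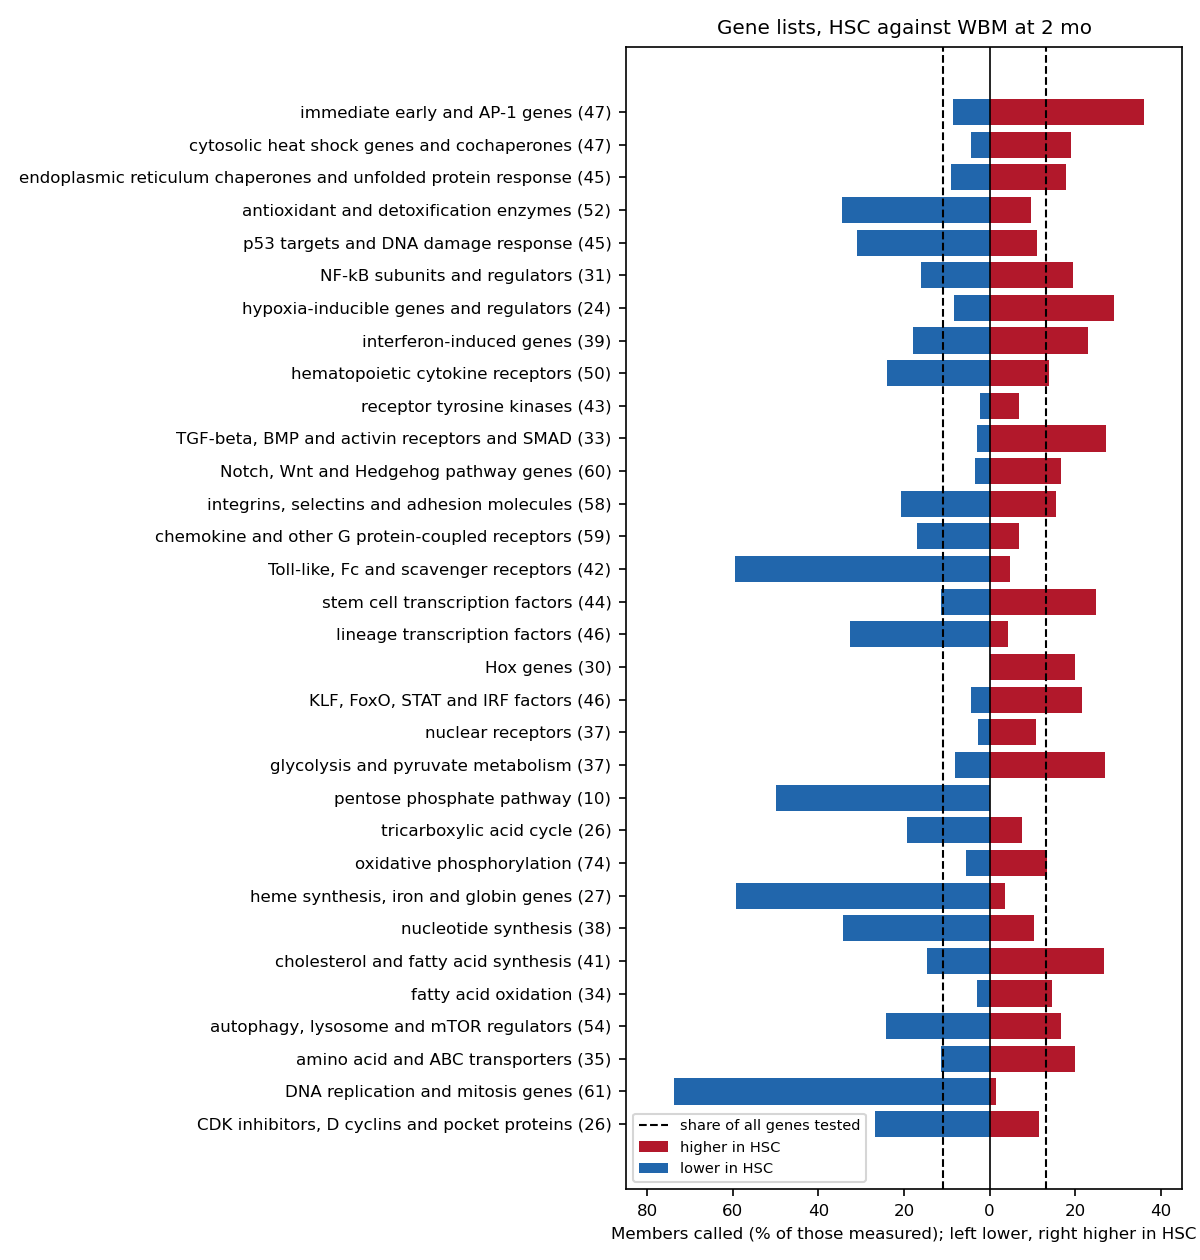
Share of the measured members of each of 32 gene lists called higher (right, red) or lower (left, blue) in HSC than in WBM at 2 mo, with the number of measured members in parentheses. Dashed lines give the shares of all 12393 genes, 13.1% higher and 10.8% lower; 36.2% of the immediate early genes were higher and 73.8% of the DNA replication and mitosis genes lower.

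The stress gene families differed in their counts. Immediate early genes, which encode transcription factors and feedback regulators transcribed within minutes of a stimulus, held 17 higher and 4 lower genes among 47 measured (36.2% and 8.5%), with a median difference of 0.81. Nr4a1, an orphan nuclear receptor of this class, read 11.46 and 11.47 in HSC and 4.57 and 4.63 in WBM, a difference of 6.86 (SE 0.10, adjusted p = 2.84e-07). Its relative Nr4a2 read 9.91 and 9.86 against 3.07 and 3.11. Of the AP-1 subunits, Jun read 10.88 and 10.64 in HSC and 4.07 and 4.29 in WBM, a difference of 6.58 (SE 0.44, adjusted p = 0.000229). Fos stood at 12.41 and 12.26 against 8.58 and 7.92, a difference of 4.08 (SE 0.22, adjusted p = 9.55e-05). The HSC arrays lay above both WBM arrays for each of these genes, and they did so too for the zinc finger factor Egr1 (10.98 and 11.16 against 8.29 and 7.82), for Ier2 (10.38 and 10.13 against 7.18 and 7.19) and for the kinase gene Plk2 (8.69 and 9.40 against 4.27 and 4.27). Fosb differed more between its HSC arrays, 7.41 and 4.38, than any of these, with 1.04 and 1.03 in WBM, and its call was lost without WBM A (adjusted p = 0.0632) or WBM B (adjusted p = 0.0609). Atf3, with 7.99 and 6.87 against 4.91 and 3.28, was called with all arrays (adjusted p = 0.0276) but not without HSC A (0.137), HSC B (0.0583) or WBM B (0.128).

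Other members of the same family were not called. Dusp1, a phosphatase that ends MAP kinase signals, read 9.41 and 9.12 in HSC and 8.53 and 7.60 in WBM (adjusted p = 0.0745), though it was called higher without WBM A (0.0402), in the fit of all 14 arrays (0.0366) and with dim probe sets removed (0.0262). Zfp36, which destabilizes cytokine mRNA, read 9.72 and 9.35 against 8.50 and 8.33 (adjusted p = 0.251, or 0.0288 in a fit of the 4 arrays at 2 mo alone), and Klf4 11.20 and 10.53 against 9.72 and 9.96 (adjusted p = 0.452). Jund, with 9.06 and 8.04 against 9.23 and 9.21, and Klf6, with 10.69 and 10.08 against 11.28 and 11.11, had negative differences. The 4 lower genes were the growth arrest gene Gadd45a (6.29 and 6.51 against 9.93 and 10.06), Btg2 (7.96 and 8.48 against 10.99 and 10.67), Srf (6.20 and 6.34 against 7.82 and 7.93) and Klf2 (4.23 and 3.77 against 7.34 and 7.10). Btg2 and Srf were not called on the mean of their probe sets. Klf2, known for its role in lymphocyte quiescence, was not called without HSC B (adjusted p = 0.061) or WBM A (0.0604). With values below 5 set to 5, 11 genes of this list were called higher in place of 17, and with single arrays left out 13 to 15. The mean level of all 47 members was 8.07 and 7.89 in HSC, 6.70 and 6.59 in WBM, and 8.86 and 8.74 in HSC at 21 mo, where Fos read 13.36 and 13.17, Jun 12.37 and 11.29 and Nr4a1 12.01 and 12.03.

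Promoters were searched for the letters of the cAMP response element, a site of CREB and ATF factors known from immediate early genes. The windows run from 250 bases before to 50 bases after each start site in RefSeq (GRCm38.p6). A gene counts when any of its promoters holds the letters, whereas the share of all promoters counts each promoter by itself. The letters TGACGTCA, which read the same on both strands, stood in 5 of the 39 immediate early genes with a promoter entry (12.8%), against 2.99% of 9887 measured genes and 1.79% of all 32851 promoters. They were in 2 of 14 higher members and 1 of 4 lower ones. The 250 bases before the start of 3 of them, which differ in their result here (Plk2 higher, Dusp1 not called, Btg2 lower), are shown 5′ to 3′ with the element in capitals. Those of Plk2 are at chr13:110394794-110395043 on the plus strand, those of Dusp1 at chr17:26508473-26508722 and those of Btg2 at chr1:134079156-134079405, both on the minus strand.
Plk2: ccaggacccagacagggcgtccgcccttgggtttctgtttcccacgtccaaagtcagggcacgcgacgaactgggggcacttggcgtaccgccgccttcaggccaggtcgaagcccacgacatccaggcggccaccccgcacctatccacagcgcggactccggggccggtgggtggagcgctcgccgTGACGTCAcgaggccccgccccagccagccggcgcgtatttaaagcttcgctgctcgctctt
Dusp1: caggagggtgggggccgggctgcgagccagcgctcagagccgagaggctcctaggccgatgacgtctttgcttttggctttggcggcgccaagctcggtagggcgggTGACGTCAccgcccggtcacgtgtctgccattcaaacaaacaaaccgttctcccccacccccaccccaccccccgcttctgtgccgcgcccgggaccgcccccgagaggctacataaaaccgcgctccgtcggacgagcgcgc
Btg2: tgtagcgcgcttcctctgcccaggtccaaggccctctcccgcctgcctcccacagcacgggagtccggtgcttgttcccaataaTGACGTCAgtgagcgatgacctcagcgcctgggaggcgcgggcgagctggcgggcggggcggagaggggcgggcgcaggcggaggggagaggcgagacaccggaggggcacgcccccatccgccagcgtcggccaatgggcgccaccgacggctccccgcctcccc
Counted from the start site, the element lies at -62 to -55 in Plk2, at -143 to -136 in Dusp1 and at -166 to -159 in Btg2. The AP-1 element TGANTCA was found in 1 of the 39 genes (2.56%, against 7.69% of measured genes), and the CArG box, the site of serum response factor, in 3 (7.69%, against 1.75%), of which Srf itself was the only one called.

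Among cytosolic heat shock genes and their cochaperones, 9 of 47 were higher (19.1%) and 2 lower (4.3%; none without any 1 of the 4 arrays), with a median difference of 0. The inducible Hsp70 genes were higher: Hspa1a read 7.04 and 8.80 in HSC and 4.02 and 4.19 in WBM, and Hspa1b 9.13 and 9.88 against 6.15 and 6.09, a difference of 3.38 (SE 0.36, adjusted p = 0.00133). The sequences of these neighbouring genes are nearly identical, and the array may not separate them. The constitutive Hspa8 was not called, with 13.90 and 14.04 in HSC and 13.79 and 14.13 in WBM. Nor were Hsp90aa1, with 13 and 13.37 against 13.47 and 13.42, and Hsph1, with 10.51 and 10.06 against 10.75 and 10.53. Hspb1 (difference 0.0, adjusted p = 0.995) and Bag3 (-0.75, adjusted p = 0.451) were not called either. Dnajb1, an Hsp40 cochaperone, had a difference of -0.57 (adjusted p = 0.395) on its brightest probe set and of 1.27 (adjusted p = 0.00223) on the mean of its probe sets. Bag6, a chaperone of tail-anchored proteins, was higher with 8.46 and 8.39 against 5.28 and 5.63. HSC at 21 mo read 10.29 and 10.67 for Hspa1b, 6.74 and 7.05 for Hspa1a and 6.87 and 6.67 for Bag6.

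In the unfolded protein response 8 of 45 genes were higher (17.8%) and 4 lower (8.9%; 2 without HSC B or WBM A). Trib3, a pseudokinase, read 9.49 and 9.23 in HSC and 2.97 and 2.88 in WBM, a difference of 6.43 (SE 0.41, adjusted p = 0.000182), and 8.78 and 9.08 in HSC at 21 mo. Ddit3, which encodes the factor CHOP, read 9.54 and 9.73 against 5.86 and 5.6, and 7.19 and 7.03 at 21 mo. Atf4, which encodes a factor that acts upstream of these genes, read 11.80 and 11.70 against 10.34 and 10.35 (adjusted p = 0.00924), and was not called without HSC A (0.0532) or WBM A (0.0531). Eif2ak3, which encodes PERK, the sensor kinase upstream of ATF4, was lower, 6.56 and 6.88 against 8.63 and 8.43 (adjusted p = 0.0257), but not without HSC A (0.124), HSC B (0.0816), WBM A (0.126) or WBM B (0.091). The lumenal chaperones Hspa5 (12.13 and 12.24 against 12.76 and 12.72) and Hsp90b1 (10.67 and 10.86 against 11.48 and 12.25) and the factor Xbp1 (11.48 and 11.43 against 11.22 and 11.38) were not called, although Hsp90b1 was called lower on the mean of its probe sets (adjusted p = 0.00934). Ero1a, the oxidase that forms disulfide bonds, was lower with 7.47 and 8.06 against 10.80 and 10.60, and read 9.60 and 9.83 in HSC at 21 mo. The count of higher genes was 3 without HSC A, 5 without HSC B and 4 without either WBM array, and 5 with values below 5 set to 5.

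Antioxidant and p53 genes held more lower than higher members. Of 52 antioxidant and detoxification genes, 5 were higher (9.6%) and 18 lower (34.6%). Glutathione reductase, Gsr, read 4.72 and 4.69 in HSC and 11.54 and 11.45 in WBM, a difference of -6.79 (SE 0.80, adjusted p = 0.00207), and 7.43 and 8.29 in HSC at 21 mo. Gpx1 (11.80 and 11.89 against 13.89 and 14) and Prdx2 (11.12 and 11.19 against 13.78 and 13.86) were lower. So were Cybb (2.03 and 2.00 against 6.17 and 5.79) and Ncf4 (5.43 and 3.98 against 9.59 and 10.35), subunits of the phagocyte oxidase that the list also holds. That oxidase makes superoxide, so the count of lower genes is not one of antioxidant enzymes alone. Sod1, with 12.28 and 12.32 against 11.97 and 11.96, and the regulator Nfe2l2, with 10.46 and 10.87 against 11.79 and 11.63, were not called, although Nfe2l2 was called lower in 5 of the alternatives (adjusted p from 0.0226 to 0.0395). The glutathione transferase Gsta4 was higher, 7.5 and 6.94 against 3.72 and 3.01. Aldh1a1, an aldehyde dehydrogenase, read 8.26 and 8.57 against 12.23 and 12.25 in WBM, but 12.49 and 12.76 in HSC at 21 mo.

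Among 45 p53 targets and DNA damage genes, 5 were higher (11.1%) and 14 lower (31.1%). Cdkn1a, the cell cycle inhibitor p21, read 10.87 and 10.60 in HSC and 6.30 and 6.26 in WBM, a difference of 4.45 (SE 0.46, adjusted p = 0.00121), and Ddb2, which recognizes ultraviolet damage, 10.69 and 10.35 against 7.58 and 7.72. The p53 targets Mdm2 (8.44 and 8.31 against 8.45 and 8.55) and Ccng1 (9.54 and 10.26 against 10.18 and 9.92) were not called. Other known p53 targets were lower, such as Gadd45a, given above, and Rrm2b, with a difference of -2.94 (adjusted p = 0.00172). The lower members included genes of repair at replication, such as Brca1 (7.55 and 7.63 against 11.59 and 11.42), Blm (7.78 and 7.5 against 9.78 and 9.86) and H2ax (6.58 and 6.40 against 9.30 and 9.55), together with the checkpoint kinase Chek2 (8.04 and 8.56 against 10.52 and 10.61). The count of lower genes was 10 without HSC A and 9 without HSC B, WBM A or WBM B.

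The NF-kB list was divided, with 6 of 31 genes higher (19.4%) and 5 lower (16.1%; 3 without WBM A and 3 with values below 5 set to 5). Relb, a subunit of the non-canonical pathway, read 7.28 and 7.16 in HSC and 3.55 and 3.87 in WBM, and Rela 9.45 and 9.58 against 7.88 and 8.01, a difference of 1.57 (SE 0.21, adjusted p = 0.0037). Tnip1, an inhibitor of the pathway, was higher at 9.91 and 10.07 against 6.86 and 7.07, and the inhibitor Nfkbia, at 13.14 and 12.92 against 12.74 and 12.55, was not called. HSC at 21 mo read 5.80 and 5.95 for Relb, 9.06 and 9.10 for Rela and 8.60 and 8.52 for Tnip1. Interferon-induced genes were divided too, 9 of 39 higher (23.1%) and 7 lower (17.9%; 4 with values below 5 set to 5). The GTPase gene Iigp1 (9.53 and 10.13 against 5.01 and 5.15) and Ifitm1 (13.12 and 13.12 against 9.23 and 9.42) were higher, and the antiviral genes Usp18 (2.04 and 2.03 against 6.12 and 6.38) and Rsad2 (8.89 and 8.33 against 13.04 and 13.31) lower. Of 24 hypoxia genes, 7 were higher (29.2%) and 2 lower (8.3%; none without any 1 of the 4 arrays). Slc2a1, the glucose transporter GLUT1, read 9.99 and 10.02 in HSC and 6.00 and 6.46 in WBM, a difference of 3.77 (SE 0.33, adjusted p = 0.000659), the collagen hydroxylase Plod2 7.49 and 8.56 against 2.56 and 3.25, and the growth factor gene Vegfa 6.13 and 6.20 against 2.52 and 3.11. Hif1a (8.39 and 8.61 against 9.43 and 9.15) and the target Bnip3 (8.64 and 8.99 against 8.92 and 8.93) were not called.

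**Figure D2:**
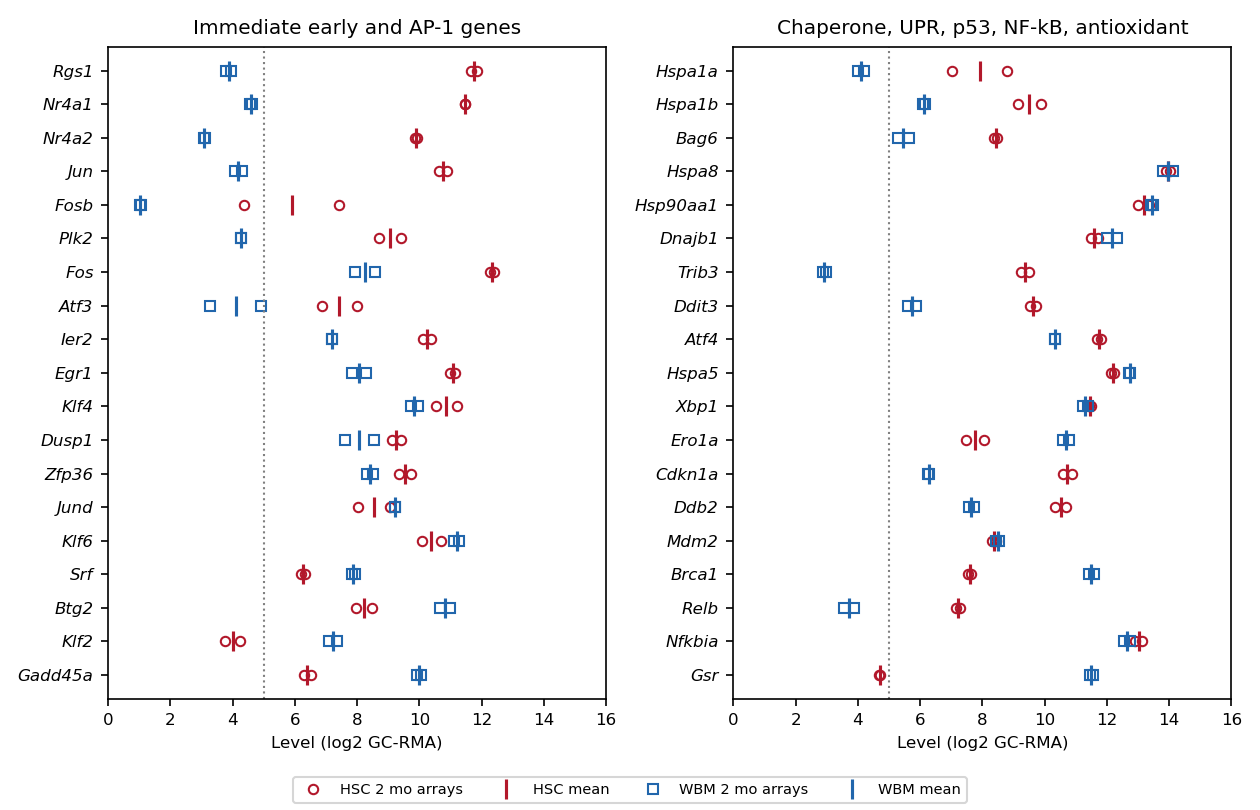
Levels (log2 GC-RMA) of immediate early genes (left) and of chaperone, unfolded protein response (UPR), p53, NF-kB and antioxidant genes (right) on the HSC arrays (red circles) and WBM arrays (blue squares) at 2 mo, 2 arrays a group, with vertical ticks at the means and a dotted line at 5. Nr4a1 lay at 11.46 and 11.47 in HSC and 4.57 and 4.63 in WBM, while the points of Hspa8 overlap and those of Gsr run the other way.

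Cytokine receptors held more lower than higher genes. Of 50 cytokine receptor genes, 12 were lower (24%) and 7 higher (14%). Il7r, the receptor of lymphoid growth, read 3.08 and 3.06 in HSC and 11.15 and 11.34 in WBM, a difference of -8.17 (SE 0.07, adjusted p = 2.46e-08), Csf1r, that of macrophage growth, 3.28 and 2.37 against 9.23 and 9.56, and Epor, that of erythropoietin, 2.25 and 2.21 against 5.80 and 5.10. Crlf2, a chain of the receptor for thymic stromal lymphopoietin, was higher with 11.87 and 11.59 against 8.87 and 8.81, a difference of 2.90 (SE 0.42, adjusted p = 0.00446). Of the interferon gamma receptor, the chain Ifngr1 was higher too, with 9.82 and 10.13 against 8.08 and 8.04. Its other chain, Ifngr2, was lower, with a difference of -3.88 (adjusted p = 0.00253). Flt3, a receptor of early progenitors, read 9.03 and 8.10 in HSC, 6.01 and 5.89 in WBM and 6.68 and 5.83 in HSC at 21 mo, and its call was lost without HSC A (adjusted p = 0.0858), WBM A (0.0756) or WBM B (0.0821). The count of higher genes was 3 without HSC A, HSC B or WBM B, 2 without WBM A and 4 with values below 5 set to 5. Of 43 receptor tyrosine kinases, of which 36 read below 5 in both groups, 3 were higher (7%) and 1 lower (2.3%; 2 without WBM A), and the higher ones included Fgfr3 (7.99 and 8.28 against 5.54 and 5.34). Tek, the receptor of angiopoietin, read 7.08 and 6.89 against 4.49 and 4.81 (adjusted p = 0.0111), and was not called without HSC A (0.0617), HSC B (0.0513) or WBM A (0.0685).

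In the TGF-beta family 9 of 33 genes were higher (27.3%) and 1 lower (3%; none without any 1 of the 4 arrays). The higher genes included those of ligand storage and of feedback. Pmepa1, a feedback inhibitor of SMAD signalling, read 10.36 and 10.95 in HSC and 2.98 and 3.44 in WBM, a difference of 7.45 (SE 0.61, adjusted p = 0.000486), and Ltbp3, which binds latent TGF-beta in the matrix, 11.85 and 11.82 against 5.18 and 4.94. The SMAD repressors Ski (8.33 and 7.99 against 5.45 and 5.30) and Skil (12.59 and 12.87 against 9.97 and 10.03) and the inhibitory Smad7 (8.28 and 8.39 against 6.14 and 6.10) were higher as well. The coreceptor endoglin, Eng, also a marker of endothelium, read 6.88 and 7.06 against 4.86 and 4.59. The signalling receptors Tgfbr1 (9.87 and 10.75 against 10.29 and 10.22) and Tgfbr2 (9.32 and 9.49 against 9.52 and 9.45) overlapped between the groups.

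Of 60 genes of the Notch, Wnt and Hedgehog pathways, 10 were higher (16.7%) and 2 lower (3.3%; 1 without HSC B or WBM A, none without HSC A or WBM B), and 37 read below 5 in both groups. Of the Frizzled receptors of Wnt ligands, Fzd6 read 7.45 and 7.75 in HSC and 2.46 and 2.44 in WBM, a difference of 5.15 (SE 0.25, adjusted p = 6.03e-05), and Fzd4 7.85 and 7.71 against 4.29 and 3.41. The Hedgehog transducer Smo read 8.18 and 8.08 against 3.10 and 4.37, the Notch ligand Jag2 7.89 and 7.70 against 3.82 and 3.80, and Mfng, a glycosyltransferase that modifies Notch, 10.73 and 10.66 against 5.24 and 6.10. Hey1, a target of Notch, was higher too (7.71 and 9.42 against 3.97 and 2.90), whereas Notch1 read 9.74 and 9.70 against 9.74 and 9.67 and Ctnnb1, which encodes beta-catenin, 13.12 and 13.19 against 13.89 and 13.68. Another target of Notch, Hes1, read 3.70 and 3.38 against 2.89 and 2.91 and was not called.

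Of 58 adhesion genes 9 were higher (15.5%) and 12 lower (20.7%). The junction proteins Esam (8.42 and 8.78 in HSC, 4.30 and 4.82 in WBM) and Jam2 (7.07 and 7.73 against 3.01 and 2.99), Robo4 (6.81 and 6.66 against 2.86 and 2.65) and the integrin ligand Icam1 (10.98 and 10.82 against 7.5 and 7.61) were higher. Cd48, a SLAM family gene known to be off in stem cells, read 2.87 and 2.70 against 10.56 and 10.26, the beta-2 integrin Itgb2 7.10 and 6.82 against 12.40 and 12.55, and Slamf1, which encodes CD150 and marks stem cells, 4.38 and 4.98 against 4.79 and 4.65, which overlap. The counts of higher and lower genes were 8 and 8 without HSC A or WBM B, 8 and 7 without HSC B or WBM A, and 7 and 7 with values below 5 set to 5. Of 59 G protein-coupled receptors, 4 were higher (6.8%) and 10 lower (16.9%). Adgrg1 (GPR56) read 9.64 and 9.80 against 3.77 and 4.90, the thrombin receptor F2r 12.01 and 11.75 against 8.61 and 9.07, and Fpr2, a chemoattractant receptor of phagocytes, 2.86 and 2.58 against 13.23 and 13.18. The niche homing receptor Cxcr4, with 9.36 and 9.45 against 10.10 and 10.01, was not called (adjusted p = 0.0837).

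Of 42 Toll-like, Fc and scavenger receptors 25 were lower (59.5%) and 2 higher (4.8%), with a median difference of -2.19. The Fc receptor Fcgr3 read 3.10 and 2.94 in HSC and 11.57 and 11.64 in WBM, a difference of -8.59 (SE 0.11, adjusted p = 1.39e-07), the lectin receptor Clec7a 6.11 and 6.07 against 12.77 and 12.77, and the scavenger receptor Cd36 3.51 and 3.45 against 9.47 and 9.49. Cd14, the lipopolysaccharide coreceptor and the only 1 of 17 monocyte and macrophage markers that was higher, read 8.05 and 8.71 in HSC and 2.23 and 2.42 in WBM, a difference of 6.06 (SE 0.28, adjusted p = 4.98e-05). Tlr2, at 8.29 and 7.87 against 8.24 and 8.23, overlapped between the groups. The mean level of all 17 markers was 5.17 and 4.67 in HSC and 8.55 and 8.75 in WBM.

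**Figure D3:**
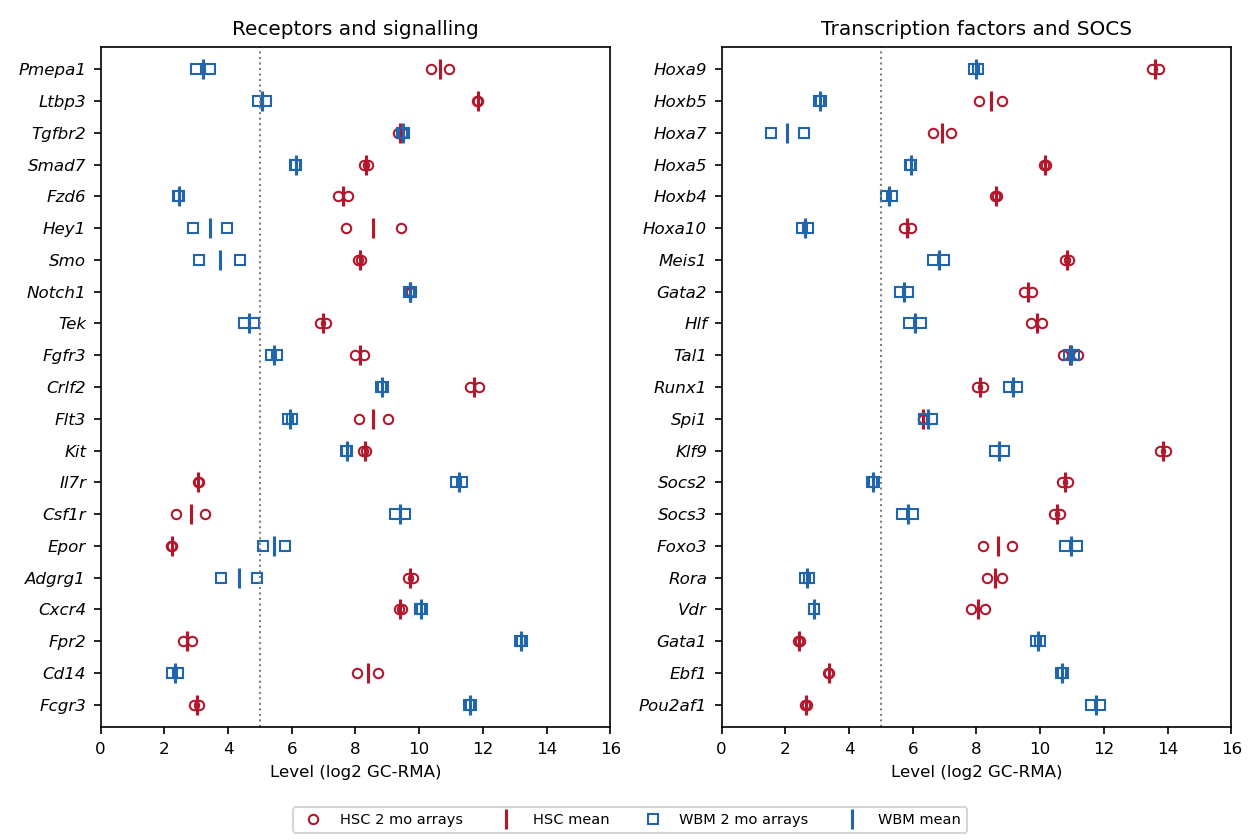
Levels (log2 GC-RMA) of receptor and signalling genes (left) and of transcription factor and SOCS genes (right) on the HSC arrays (red circles) and WBM arrays (blue squares) at 2 mo, 2 arrays a group, with vertical ticks at the means and a dotted line at 5. Hoxa9 lay at 13.72 and 13.51 in HSC and 8.05 and 7.92 in WBM, Il7r at 3.08 and 3.06 against 11.15 and 11.34, and the points of Tgfbr2, Notch1 and Tal1 overlap.

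Among the transcription factors, 6 of 30 Hox genes were higher (20%), none was lower, and the other 24 read below 5 in both groups. All 6 belong to the A and B clusters. Hoxa9 read 13.72 and 13.51 in HSC and 8.05 and 7.92 in WBM, a difference of 5.64 (SE 0.15, adjusted p = 4.57e-06), and Hoxb5 8.09 and 8.81 against 3.12 and 3.06, a difference of 5.36 (SE 0.34, adjusted p = 0.000187). Hoxa5 stood at 10.12 and 10.18 against 5.92 and 5.95, Hoxb4 at 8.64 and 8.58 against 5.36 and 5.16, and Hoxa10 at 5.93 and 5.71 against 2.70 and 2.53. Hoxa7, at 6.65 and 7.21 against 2.57 and 1.56, was not called without HSC B (adjusted p = 0.0608) or WBM B (0.0609). HSC at 21 mo read 13.30 and 13.46 for Hoxa9, 8.52 and 8.80 for Hoxb5 and 8.34 and 8.37 for Hoxb4.

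Of 44 factors with known roles in stem cells, 11 were higher (25%) and 5 lower (11.4%). Meis1, the partner of Hoxa9, read 10.77 and 10.92 in HSC and 6.65 and 6.99 in WBM, a difference of 4.02 (SE 0.38, adjusted p = 0.000848), Gata2 9.50 and 9.73 against 5.61 and 5.85, Hlf 10.06 and 9.71 against 6.26 and 5.87, and the LIM adaptor Ldb1 7.46 and 7.82 against 3.10 and 3.60. Several factors needed to found the blood system were not called: Tal1 at 10.71 and 11.19 against 10.90 and 11.06, Lmo2 at 12.01 and 11.75 against 11.36 and 11.08, Lyl1 at 7.91 and 8.59 against 7.94 and 8.24, and Runx1 at 8.01 and 8.22 against 9.02 and 9.27, which was called lower in a fit of the 4 arrays at 2 mo alone (adjusted p = 0.0218) and without the 12 mo arrays (0.0434). The count of lower genes was 1 without HSC A or WBM A, 3 without HSC B, 2 without WBM B, and 2 with values below 5 set to 5 or with probe sets averaged. Among 46 factors of single lineages, 15 were lower (32.6%) and 2 higher (4.3%; 1 without WBM B, none without HSC A, HSC B or WBM A). The erythroid factor Gata1 read 2.46 and 2.41 against 9.99 and 9.86, the B cell factors Ebf1 3.38 and 3.33 against 10.72 and 10.66 and Pou2af1 2.67 and 2.62 against 11.88 and 11.60. Spi1, which encodes PU.1 (6.31 and 6.31 against 6.60 and 6.34), and Myb (12.80 and 12.60 against 13 and 12.66) were not called.

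Of 46 KLF, FoxO, STAT and IRF factors with their SOCS inhibitors, 10 were higher (21.7%) and 2 lower (4.3%). The feedback inhibitors of cytokine signalling were higher: Socs2 read 10.67 and 10.87 in HSC and 4.78 and 4.71 in WBM, a difference of 6.02 (SE 0.89, adjusted p = 0.00488), Socs3 10.43 and 10.62 against 5.65 and 6.02, and Cish 9.19 and 9.43 against 5.45 and 4.86. Klf9 read 13.94 and 13.75 against 8.85 and 8.58, a difference of 5.13 (SE 0.19, adjusted p = 1.66e-05). Foxo3, known to protect HSC from oxidative stress, was lower in HSC with 9.12 and 8.20 against 10.79 and 11.17, a difference of -2.32 (SE 0.37, adjusted p = 0.00645). The count of higher genes was 7 without HSC A and 6 without any other of the 4 arrays. Of 37 nuclear receptors and coregulators 4 were higher (10.8%) and 1 lower (2.7%). Rora read 8.81 and 8.34 against 2.63 and 2.73, a difference of 5.89 (SE 0.34, adjusted p = 0.000111), the vitamin D receptor Vdr 7.82 and 8.28 against 2.90 and 2.89, and the clock component Nr1d2 9.64 and 10.07 against 6.94 and 7.08.

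Among metabolic genes, isoforms of 1 enzyme could differ in direction. Of 37 genes of glycolysis and pyruvate metabolism, 10 were higher (27%) and 3 lower (8.1%). The isoforms of enolase and aldolase known from brain were higher: Eno2 read 8.43 and 8.09 in HSC and 3.01 and 3 in WBM, a difference of 5.25 (SE 0.44, adjusted p = 0.000534), and Aldoc 7.37 and 7.53 against 2.64 and 2.46. Ldhb, the lactate dehydrogenase of oxidative tissues, read 10.89 and 11.01 against 6.42 and 6.52, a difference of 4.48 (SE 0.145, adjusted p = 1e-05), while Ldha, the form of glycolytic tissues, read 11.30 and 11.78 against 12.27 and 12.01 and was not called. The pyruvate dehydrogenase kinase Pdk4, an inhibitor of the entry of pyruvate into mitochondria, was higher (6.38 and 5.65 against 3.14 and 3.26), and Hk2 (7.41 and 6.97 against 7.81 and 7.66) and Pkm (8.53 and 8.56 against 9.49 and 9.69) were not called, although Pkm was called lower in a fit of the 4 arrays at 2 mo alone (adjusted p = 0.00969) and without the 12 mo arrays (0.00111). Lower were Bpgm, which makes bisphosphoglycerate in red cells (10.22 and 10.93 against 14.22 and 14.32), and the lactate transporter Slc16a1 (8.20 and 8.17 against 11.89 and 11.66). In the pentose phosphate pathway, which supplies NADPH and ribose, 5 of 10 genes were lower (50%) and none higher. Pgd read 11.50 and 11.24 against 13.03 and 13.36, a difference of -1.82 (SE 0.19, adjusted p = 0.00133), and Rpe 7.08 and 7.03 against 9.80 and 9.28. The count was 3 without each of the 4 arrays in turn. Tkt (12.83 and 12.77 against 14.72 and 14.60) lost its call there, with adjusted p from 0.104 to 0.128.

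Of 74 genes of oxidative phosphorylation 10 were higher (13.5%, beside 13.1% of all genes) and 4 lower (5.4%; 2 without HSC B, WBM A or WBM B), with a median difference of 0.43. Atp5d, a subunit of ATP synthase, read 11.52 and 11.96 in HSC and 8.77 and 8.94 in WBM, a difference of 2.88 (SE 0.47, adjusted p = 0.00683), and 9.99 and 9.87 in HSC at 21 mo. Ndufs8, of complex I, read 11.60 and 11.74 against 8.55 and 8.83, and 8.97 and 8.69 at 21 mo, and it was not called without HSC A (adjusted p = 0.0514), HSC B (0.0613) or WBM A (0.0658). Cyc1, of complex III, read 11.87 and 12.28 against 10.15 and 10.20, and 10.53 and 10.28 at 21 mo. At 21 mo these genes read lower than at 2 mo. Atp5d and Cyc1 remained above both WBM arrays, and Ndufs8 overlapped with them. The mean level of the 74 genes was 10.42 and 10.23 in HSC, 9.79 and 9.93 in WBM and 9.81 and 9.49 in HSC at 21 mo, where the 5′ control for 18S rRNA read 4.84 and 5.44 in place of 10.91 and 10.88. Its part in these values was not tested. Among the lower genes, Ndufb3, of complex I, had a difference of -1.78 (adjusted p = 0.00325). The count of higher genes was 5 without HSC A or WBM A, 6 without HSC B and 7 without WBM B, and it was 18 in a fit of the 4 arrays at 2 mo alone. In the tricarboxylic acid cycle list 2 of 26 genes were higher (7.7%) and 5 lower (19.2%). Both counts were smaller without any 1 of the 4 arrays. Idh1, lower with 7.92 and 8.50 against 10.17 and 10.46, encodes a cytosolic enzyme. Of the mitochondrial subunits, Idh3g (1.47) and Idh3b (1.08) were higher and Idh3a (-1.65) lower, as was Fh1 (-1.01). Among these last genes only Idh3g kept its call without each of the 4 arrays in turn.

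**Figure D4:**
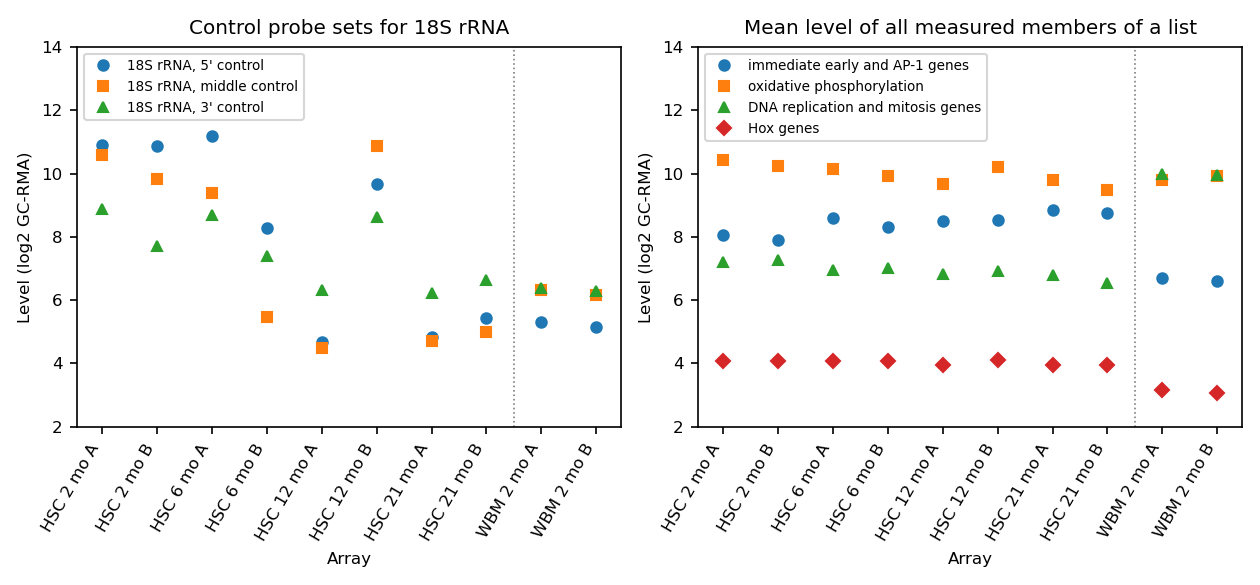
Control probe sets for 18S rRNA (left) and the mean level of all measured members of 4 gene lists (right) on the 10 WT arrays, in log2 GC-RMA, with WBM to the right of the dotted line. The 5′ control read 10.91 and 10.88 in HSC at 2 mo, 4.84 and 5.44 at 21 mo and 5.32 and 5.14 in WBM, and the mean of the immediate early genes ran from 7.89 to 8.86 over the 8 HSC arrays, against 6.70 and 6.59 in WBM.

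Lipid genes were divided. Of 41 genes of cholesterol and fatty acid synthesis, 11 were higher (26.8%) and 6 lower (14.6%). Scd2 and Scd1 are desaturases of the same reaction. Scd2 read 12.67 and 12.93 in HSC and 10.71 and 10.68 in WBM, a difference of 2.11 (SE 0.18, adjusted p = 0.000586), and Scd1 4.89 and 5.77 against 9.90 and 9.84, a difference of -4.54 (SE 0.35, adjusted p = 0.000402). Srebf1, the regulator of fatty acid synthesis, read 9 and 9.35 against 4.22 and 4.24, and 5.92 and 5.38 in HSC at 21 mo. Its adjusted p of 0.0359 became 0.121 to 0.147 without any of the 4 arrays. Fasn, the synthase itself, read 8.73 and 9.24 against 6.23 and 6.22, and 6.33 and 6.53 at 21 mo, and was not called without HSC B (adjusted p = 0.0754), WBM A (0.0663) or WBM B (0.0644). Hmgcs1, of sterol synthesis, had a difference of 0.48 (adjusted p = 0.487) on its brightest probe set and of -1.26 (adjusted p = 0.0195) on the mean of its probe sets. The count of higher genes was 8 without HSC A, 4 without HSC B, 6 without WBM A or WBM B, and 7 with values below 5 set to 5. Of 34 genes of fatty acid oxidation 5 were higher (14.7%) and 1 lower (2.9%; none without HSC A, HSC B or WBM B), among the higher Acadvl (9.76 and 10.52 against 7.72 and 7.69) and Ppargc1a, the coactivator of mitochondrial genes (6.56 and 7.93 against 3.12 and 3.03). Cpt1a, which brings fatty acids into mitochondria, read 8.73 and 8.89 against 8.90 and 9.04 and was not called (adjusted p = 0.803).

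Heme and iron genes were lower in 16 of 27 cases (59.3%) and higher in 1 (3.7%), with a median difference of -2.08. Fech, the last enzyme of heme synthesis, read 6.51 and 7.29 in HSC and 12.66 and 12.97 in WBM, a difference of -5.91 (SE 0.28, adjusted p = 5.18e-05), and the iron exporter ferroportin, Slc40a1, 5.89 and 5.25 against 11.31 and 11.33. The receptors of transferrin differed in direction: Tfrc read 9.63 and 9.66 against 14.34 and 14.33, and Tfr2, the iron-sensing form, 12.63 and 12.55 against 9.88 and 9.94, a difference of 2.69 (SE 0.09, adjusted p = 9.82e-06). The erythroid markers, 12 of 13 lower, moved with this list, and their part in its count was not tested. Of 38 genes of nucleotide synthesis 13 were lower (34.2%) and 4 higher (10.5%; 2 without HSC B). The ribonucleotide reductase subunit Rrm2 read 9.39 and 9.33 against 14.02 and 14.07, the thymidine kinase Tk1 2.72 and 2.69 against 7.30 and 7.62, and the salvage kinase Dck 10.53 and 10.34 against 13.81 and 13.77.

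Among 35 amino acid and ABC transporters 7 were higher (20%) and 4 lower (11.4%). The multidrug pump Abcb1b read 7.24 and 6.97 in HSC and 4.46 and 4.35 in WBM, a difference of 2.70 (SE 0.23, adjusted p = 0.000529). Abcg2, the pump known to carry the Hoechst dye in side population cells, read 10.93 and 11.07 in HSC and 12.50 and 12.29 in WBM, a difference of -1.40 (SE 0.42, adjusted p = 0.0644), and was not called. It was called lower in a fit of the 4 arrays at 2 mo alone (adjusted p = 0.00796) and in that of all 14 arrays (0.0338), and in 4 further alternatives (0.0199 to 0.0424), but in none of the fits without 1 array. The amino acid carriers Slc7a6 (9.86 and 9.73 against 6.54 and 6.70) and Slc3a2 (11.24 and 11.26 against 9.31 and 9.18) were higher. Of 54 autophagy, lysosome and mTOR genes 9 were higher (16.7%) and 13 lower (24.1%). Map1lc3a, of the autophagosome membrane, read 9.92 and 10.19 against 5.88 and 6.79, and Eif4ebp1, the translation repressor that mTOR inactivates, 9.78 and 9.57 against 6.58 and 6.90. Cathepsins, proteases of lysosomes and granules, were divided. Ctsb read 8.36 and 8.34 against 11.92 and 11.82 and Ctsg, of neutrophil granules, 2.90 and 2.88 against 10.35 and 10.84, while Ctsl was higher, 11.39 and 11.87 against 9.46 and 9.58 (adjusted p = 0.00403). The count of lower genes was 8 without HSC A and with values below 5 set to 5, and 7 without HSC B, WBM A or WBM B, and that of higher genes 5 without WBM B.

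**Figure D5:**
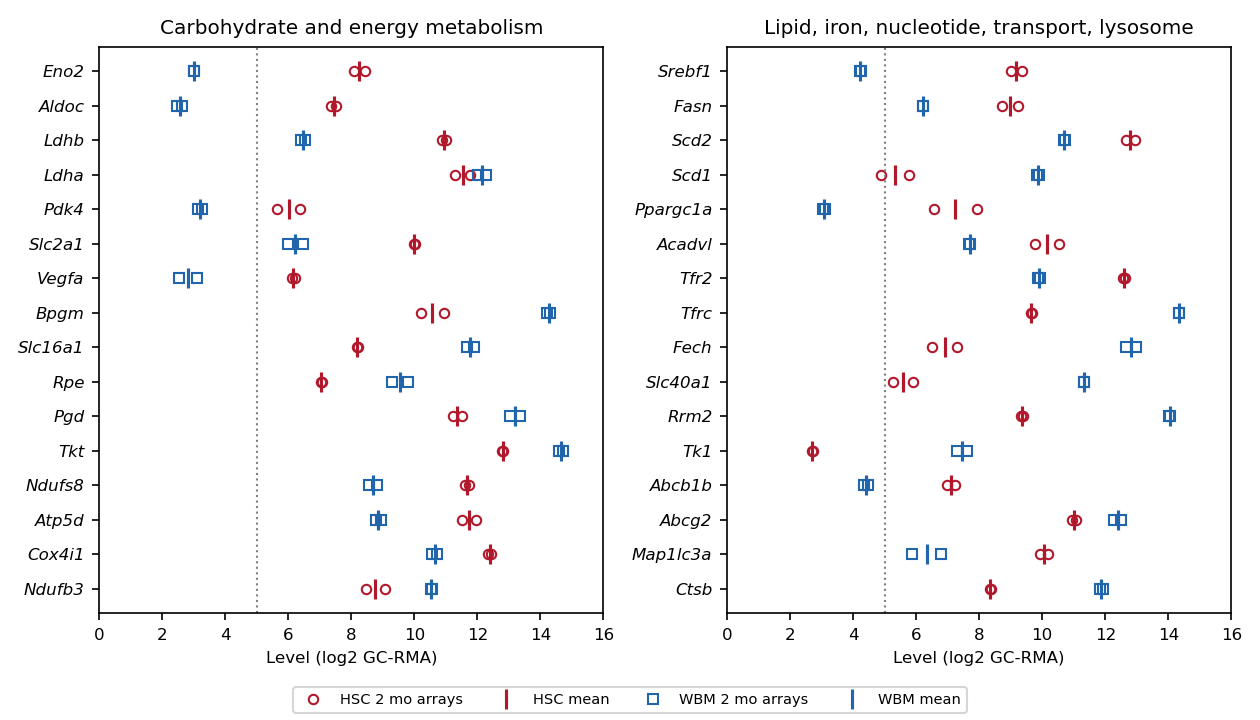
Levels (log2 GC-RMA) of genes of carbohydrate and energy metabolism (left) and of lipid, iron, nucleotide, transport and lysosomal genes (right) on the HSC arrays (red circles) and WBM arrays (blue squares) at 2 mo, 2 arrays a group, with vertical ticks at the means and a dotted line at 5. Ldhb lay at 10.89 and 11.01 in HSC and 6.42 and 6.52 in WBM and Ldha at 11.30 and 11.78 against 12.27 and 12.01; Scd2 and Scd1, and Tfr2 and Tfrc, run in opposite directions.

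Genes of DNA replication and mitosis were lower in 45 of 61 cases (73.8%) and higher in 1 (1.6%), the clamp loader subunit Rfc3, with a median difference of -2.56. Mki67, the proliferation antigen, read 10.64 and 10.53 in HSC and 14.13 and 14.16 in WBM, a difference of -3.56 (SE 0.16, adjusted p = 4.69e-05). Cdk1 read 9.09 and 9.27 against 11.28 and 11.20, Cdc20, the activator of the anaphase complex, 8.83 and 8.27 against 11 and 10.95, and Top2a 9.55 and 9.46 against 12.28 and 12.22. These genes were thus well above 5 in HSC too, whereas Ccnb2 (3.30 and 3.43 against 9.90 and 9.72), Plk1 (3.51 and 3.9 against 7.84 and 8.12) and Cenpf (3.75 and 3.02 against 11.45 and 11.43) were not. Of the CDK inhibitors, Cdkn1c, which encodes p57, was higher in HSC, 7.01 and 7.21 against 3.87 and 3.79, a difference of 3.28 (SE 0.19, adjusted p = 0.000128), and Cdkn2c, which encodes p18, was lower, 4.54 and 3.94 against 9.89 and 9.85. Cdkn1b, which encodes p27, passed the adjusted p but not the 2-fold limit, 9.16 and 8.97 against 9.94 and 10. Ccnd2 was higher (11.20 and 11.22 against 9.13 and 9.29), Ccnd1 was not called (7.68 and 8.09 against 6.00 and 7.48), and the pocket protein gene Rb1 was lower (8.59 and 9.16 against 11.74 and 11.93).

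Promoters of cell cycle genes are known to carry the cell cycle homology region (TTTGAA) and CCAAT boxes, through which they are repressed outside the cycle and induced in it. Both strands of the windows described above were searched, with genes and promoters counted as there. TTTGAA was in 20 of the 36 lower members with a promoter entry (55.6%) and in 23 of all 50 members with one (46%), against 15.4% of 9887 measured genes and 17.9% of all promoters. CCAAT was in 27 of the 36 (75%) and in 37 of the 50 (74%), against 42.3% and 37.4%. The E2F element TTTCGCGC was in 4 of the 36 (11.1%) and in 7 of the 50 (14%), Rfc3 among them, against 0.698% of measured genes and 0.323% of all promoters. The 250 bases before the start of 3 of them follow, 5′ to 3′ on the minus strand, with TTTGAA and CCAAT in either strand in capitals (on the other strand they read TTCAAA and ATTGG). Those of Cdk1 are at chr10:69352913-69353162, those of Cdc20 at chr4:118437344-118437593 and those of Mki67 at chr7:135716380-135716629.
Cdk1: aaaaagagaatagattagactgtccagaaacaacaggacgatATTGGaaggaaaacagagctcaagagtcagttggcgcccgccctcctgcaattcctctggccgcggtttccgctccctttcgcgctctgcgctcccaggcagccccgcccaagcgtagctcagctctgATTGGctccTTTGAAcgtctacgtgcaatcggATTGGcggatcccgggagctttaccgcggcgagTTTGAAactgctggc
Cdc20: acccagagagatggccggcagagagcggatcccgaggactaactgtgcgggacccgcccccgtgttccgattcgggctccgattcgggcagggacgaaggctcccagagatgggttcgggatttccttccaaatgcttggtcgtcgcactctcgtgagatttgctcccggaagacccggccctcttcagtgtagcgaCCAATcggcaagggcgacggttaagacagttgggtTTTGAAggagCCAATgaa
Mki67: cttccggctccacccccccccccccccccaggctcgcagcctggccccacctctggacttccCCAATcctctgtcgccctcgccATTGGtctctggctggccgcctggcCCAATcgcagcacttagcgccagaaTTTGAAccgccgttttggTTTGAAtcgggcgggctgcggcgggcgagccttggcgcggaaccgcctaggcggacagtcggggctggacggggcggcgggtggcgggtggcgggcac
The cell cycle homology region nearest to the start site lies at -15 to -10 in Cdk1, at -18 to -13 in Cdc20 and at -98 to -93 in Mki67. Such matches describe letters and do not show binding.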

How the data were processed

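Expression was measured on Affymetrix MOE430A arrays. Images were read with MAS 5.0, and the authors deposited log2 GC-RMA values, a background correction by probe GC content with quantile normalization, which forces the arrays to like distributions. For GCRMA, the sources used here give neither a version nor the set of arrays normalized together. The deposited log2 values were used as they are. Group means over the 10 WT arrays were fitted with limma 3.58.1 in R 4.3.3 (5 residual degrees of freedom), HSC were compared with WBM at 2 mo, and p-values were adjusted by Benjamini-Hochberg over all 22626 probe sets, without the 64 control probe sets. A probe set was called at an adjusted p under 0.05 and a difference of at least 2-fold. The fit was tested on simulated data. Gene names came from GEO's platform annotation. Probe sets with several symbols (691) or none (1555) are counted only among the probe sets. Named genes are up to 6 members of each list in each direction, by size, among called members whose arrays do not overlap and whose brighter group is at 5 or above, together with the members that the lists mark as always given. The members and lists were chosen with earlier results of these data known. Promoters are those of RefSeq (GRCm38.p6), found for 1150 of 1431 listed genes. The alternatives were other arrays in the fit, each array left out, the replicate letter as a block, other scalings, filters, a floor, other thresholds and other choices of the probe set.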

Additional observations from a re-analysis of the deposited data

How the results depend on the processing

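With 1 of the 4 arrays at 2 mo left out, 1612 to 1873 probe sets were called higher and 1578 to 1659 lower, and 1117 to 1274 genes higher and 986 to 1037 lower, and the count of 1612 was that without WBM A. An adjusted p under 0.01 with a 4-fold difference left 1007 probe sets higher and 1065 lower, and 701 and 691 genes. Without the arrays at 12 mo, an alternative chosen after seeing the data, the counts were 2884 and 2618 probe sets and 1857 and 1562 genes. The deviations of same-lettered arrays from their group means correlated at -0.0041, which cannot show whether the letters pair arrays by day or cohort. With the letter as a replicate block 2311 probe sets were higher and 2073 lower, 1535 and 1261 genes. Of 351 named genes that were called, 270 kept their call in all 4 fits without 1 array. Differences reversed for Dnajb1 (1.27) and Hmgcs1 (-1.26) on the mean of their probe sets, and for Cflar (0.55), Igll1 (0.10) and Lifr (0.01) on the probe set that was brightest in HSC. The cause was not tested. Levels under 5 bear sizes of difference only loosely.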
